A study of Mus musculus with 10 samples.

Results

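The genes of cholesterol and fatty acid synthesis were examined in 10 mouse mammary tumours. The set held 37 genes named from the textbook pathways and matched by symbol to the Ensembl identifiers of the count table. It comprised 21 genes of the sterol branch and 16 of the fatty acid branch, out of 55335 genes in the table. All 37 were present and all passed the filter on low counts, as did 16167 genes in all.

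Every tumour grew from mammary epithelial cells of virgin Wap-Myc mice, in which a Myc transgene is driven by the whey acidic protein promoter, on the FVB background. The cells had been transduced at a multiplicity of infection of 10 with the lentiviral construct pIND21-HPN, a doxycycline-inducible vector for hepsin. Hepsin is a serine protease of the epithelial cell surface. The 5 DOX_pos tumours came from hosts that drank doxycycline at 2 mg/ml in 5% sucrose from 3 days after transplantation. The 5 DOX_neg tumours came from hosts given sugar water (5% sucrose). All hosts received the cells at 3 weeks of age. Both groups carried the transgene and the construct, Myc was induced at 8 weeks of age by 2 pregnancies, and RNA was taken from the whole tumour at 1 cm. Every DOX_pos tumour had both doxycycline and the induced construct, so the effects of the drug and of hepsin cannot be told apart. Whether any host carried more than 1 of the tumours is not stated, so the p-values cover only the spread among the tumours sequenced.

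Total counts ran from 14256948 to 20469533 in 9 tumours and reached 39358457 in DOX_pos 3. Values below are CPM, counts relative to library size, scaled with TMM factors, which correct for library composition. Mouse Hpn measured 21.7 ± 4.69 CPM in DOX_neg and 31.7 ± 8.55 in DOX_pos (SD, n = 5), with 4 of 5 DOX_pos tumours above every DOX_neg tumour. Its log2 fold change was 0.55 (SE 0.20, edgeR quasi-likelihood test, adjusted p = 0.247). The species of the hepsin sequence in the construct is not given in the sources used here, so mouse Hpn reads may not count the construct. All 8 epithelial markers on a fixed list were detected in these tumours.

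Cells build cholesterol from acetyl-CoA through mevalonate and squalene, and build fatty acids from the same acetyl-CoA through malonyl-CoA and palmitate. The transcription factors SREBP-2 and SREBP-1, made from Srebf2 and Srebf1, drive the sterol and the fatty acid genes, after the escort protein SCAP has carried them from the endoplasmic reticulum, where INSIG proteins hold them back in sterol-replete cells. The mammary gland raises fatty acid synthesis in lactation to make milk fat, and tumours commonly keep these pathways active.

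Promoter sequence from RefSeq (GRCm38.p6) was at hand for 30 of the 37 genes, and Fdps, Fdft1, Sqle, Stard4, Scd1, Scd2 and Fads1 had none. The stretches shown end at the base before the start site, read 5′ to 3′ on the gene's strand. Capitals mark matches to TCACNCCAC, the sterol regulatory element consensus searched here, and to CCAAT or its reverse complement ATTGG, the letters recognised by NF-Y, a partner of the SREBPs. Hmgcs1, Mvd and Nsdhl were taken from the sterol genes that varied together between tumours. Fasn stands for the fatty acid branch, and Acacb is the member with the lowest p. The windows are Hmgcs1 at chr13:119690171-119690350 on the plus strand, Mvd at chr8:122443423-122443542 on the minus strand and Nsdhl at chrX:72918401-72918520 on the plus strand. Fasn is at chr11:120824548-120824667 on the minus strand and Acacb at chr5:114165398-114165517 on the plus strand.
Hmgcs1: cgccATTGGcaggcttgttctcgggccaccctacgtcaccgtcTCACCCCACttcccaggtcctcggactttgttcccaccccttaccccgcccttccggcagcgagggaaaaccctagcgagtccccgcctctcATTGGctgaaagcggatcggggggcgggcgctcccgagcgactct
Mvd: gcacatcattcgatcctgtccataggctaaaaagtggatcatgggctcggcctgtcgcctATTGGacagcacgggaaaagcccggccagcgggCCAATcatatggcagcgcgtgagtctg
Nsdhl: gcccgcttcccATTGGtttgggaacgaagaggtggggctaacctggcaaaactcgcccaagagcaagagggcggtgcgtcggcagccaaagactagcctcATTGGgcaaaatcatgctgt
Fasn: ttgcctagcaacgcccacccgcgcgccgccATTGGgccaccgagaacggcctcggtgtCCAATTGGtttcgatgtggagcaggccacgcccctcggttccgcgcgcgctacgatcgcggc
Acacb: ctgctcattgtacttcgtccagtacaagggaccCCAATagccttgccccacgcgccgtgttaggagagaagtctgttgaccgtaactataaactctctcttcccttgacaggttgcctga
The Acacb window lies inside the annotated gene, ending 18983 bases downstream of its GENCODE start, and 9 of its bases are in an Acacb exon.

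Within 250 bases before a listed start, on either strand, CCAAT matched in 25 of the 30 members (83.3%). It matched in 37.5% of the 27025 genes in the promoter table and 40% of the 10823 that were tested here. By branch this was 16 of 17 sterol members (94.1%) and 9 of 13 fatty acid members (69.2%). A gene with more than 1 listed start (up to 3) counted if any window matched. The CCAAT match of Me1 came only from a window ending 8676 bases downstream of its GENCODE start. Those of Dhcr7 came only from one ending 7069 bases downstream. The only Acaca window, without a match, ended 65766 bases downstream. TCACNCCAC matched in 1 member, Hmgcs1, 137 bases before its start, and in 1.22% of all genes, as of those tested. The E-box CACGTG, a palindrome that Myc and other factors bind, matched in 6 of 30 members (20%), 5 of them in the sterol branch, against 6.86% of all genes and 9.72% of those tested here. The Dhcr7 E-box lay in a window with all 250 bases in Dhcr7 exons. All of these are matches of letters and were not tested for binding.

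No member passed the threshold of adjusted p under 0.05 in edgeR, and neither did any of the 16167 genes (0%). DESeq2 called 1 member, Acacb, where it called 2% of genes (0.742% lower in DOX_pos). Limma voom with sample weights called 4 members, Acacb, Acly, Dhcr7 and Elovl6, which is 10.8% of the members where it called 4.79% of genes. All 4 were lower in DOX_pos, where 2.68% of all genes were called lower. Acly, Dhcr7 and Elovl6 were called by voom alone. Its sample weights were uneven, at 4.65 for DOX_pos 3 against 0.465 to 1.04 for the other DOX_pos tumours. In DOX_neg they ran from 0.633 (DOX_neg 3) to 1.89 (DOX_neg 5). The voom calls therefore rest on DOX_pos 3 more than on any other tumour. At an unadjusted edgeR p under 0.05 there were 6 members (16.2%) against 16% of all genes (2592), so the share equalled the background. All 6 were lower in DOX_pos, where 7.83% of all genes were lower and 8.2% higher at that p. In all, 14 members had higher and 23 lower fitted values, with a median log2 fold change of −0.02, against 0.002 over all tested genes.

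By branch, the 16 fatty acid genes had 4 higher and 12 lower values (75% lower, against 49.5% of all tested genes), a median log2 fold change of −0.17 and a range of −1.26 to 0.35. The 21 sterol genes had 10 higher and 11 lower values, a median of −0.02 and a range of −0.52 to 0.19. The difference between the branches was not tested. Without DOX_pos 4 the fatty acid median moved to −0.06.

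**Figure D1:**
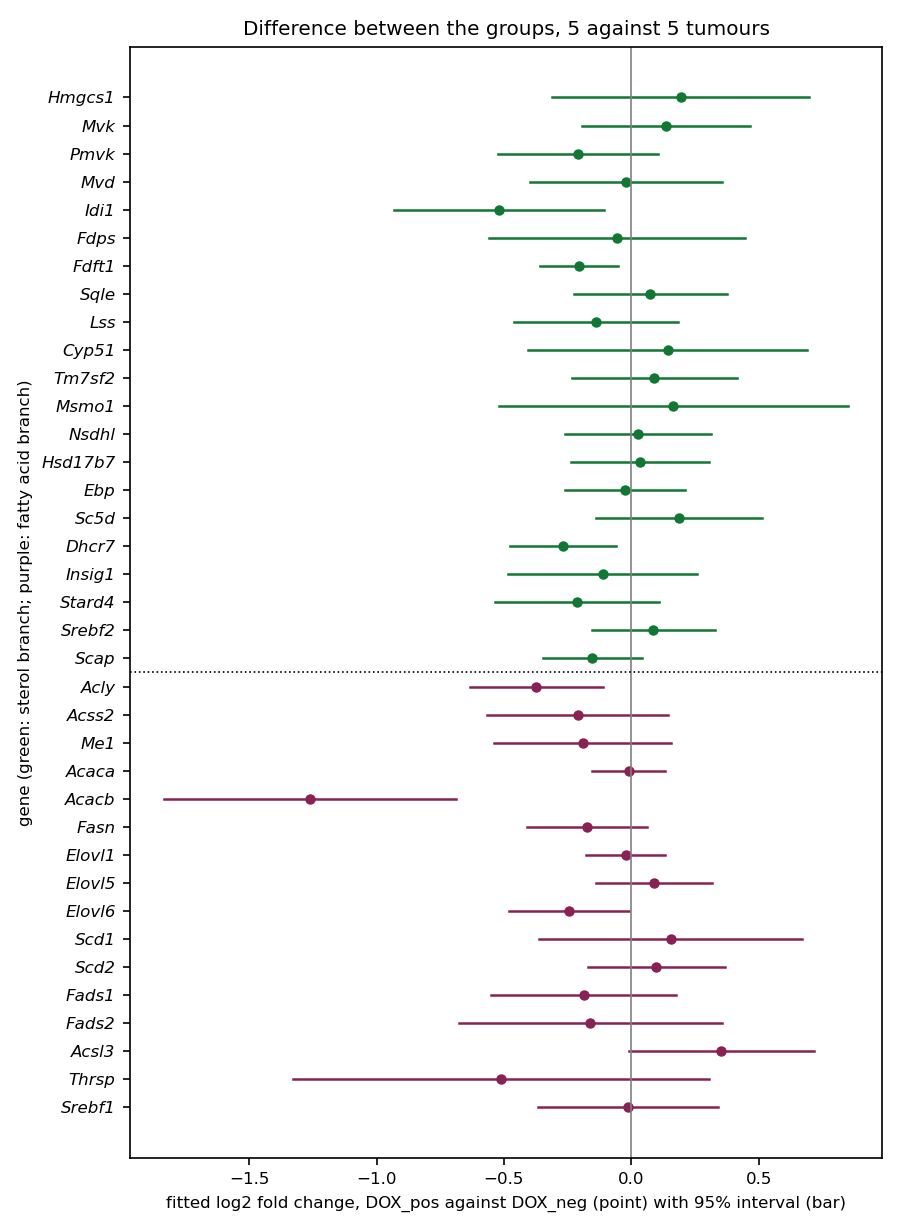
Log2 fold change of each of the 37 genes in DOX_pos against DOX_neg (x axis), with the 95% interval of the edgeR fit as bars, genes ordered by pathway role (y axis). Acacb lies farthest to the left at −1.26, and most other intervals span 0.

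In the fatty acid branch, the supply of acetyl-CoA and NADPH begins with Acly, the ATP citrate lyase that releases acetyl-CoA from citrate in the cytosol (chr11:100476353-100528000, GRCm38, minus strand). Acly measured 329.9, 339, 266, 407 and 329.7 CPM in DOX_neg 1 to 5 and 258, 319, 248, 225 and 241 CPM in DOX_pos 1 to 5. Of the 5 DOX_pos tumours 4 lay below every DOX_neg tumour, and only DOX_pos 2 reached into the DOX_neg range. The group levels were 334 ± 49.9 and 258 ± 36.2 CPM, and the log2 fold change was −0.37 (SE 0.12, edgeR adjusted p = 0.236, voom adjusted p = 0.0352). Over all alternatives run, its adjusted p ranged from 0.0352 to 0.584. Acss2, which makes acetyl-CoA from acetate, measured 11.2 ± 0.731 and 9.69 ± 2.37 CPM, and Me1, the malic enzyme that supplies NADPH, 57.2 ± 8.49 and 50.1 ± 11.4 CPM. Both had log2 fold changes near −0.2 (−0.21 and −0.19) that did not pass the test, with overlapping groups. Without DOX_pos 4 they were −0.092 and −0.097, and voom gave −0.39 for Acss2 (adjusted p = 0.0766). Of the 75-base stretches of Me1 16.4% also occur elsewhere in the transcriptome, most often in Gm7049, which collected 804 reads over the 10 tumours.

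The next step, the making of malonyl-CoA, is catalysed by 2 carboxylases. Acacb encodes the mitochondrial form, whose malonyl-CoA restrains the entry of fatty acids into mitochondria, and lies at chr5:114146535-114250761 (GRCm38, plus strand). Its level was 16.3, 24.0, 16.2, 38.9 and 17.4 CPM in DOX_neg 1 to 5 and 7.61, 11.004, 11.8, 7.16 and 9.30 CPM in DOX_pos 1 to 5. The groups did not overlap, and DOX_neg 4 stood highest. Acacb was the only member of the 37 without overlap, where 1.13% of all tested genes had every DOX_pos tumour below every DOX_neg tumour and 1.82% the reverse. The group levels were 22.6 ± 9.69 and 9.37 ± 2.02 CPM, a fitted fold of 0.417 and a log2 fold change of −1.26 (SE 0.26, 95% interval −1.83 to −0.69). This did not pass edgeR (adjusted p = 0.196) but passed DESeq2 (adjusted p = 0.0017) and voom (adjusted p = 0.0435). Over all alternatives the adjusted p ran from 0.0017 to 0.344 and the log2 fold change from −1.36 to −0.88. Counts behind these values were 100 to 672 reads per tumour.

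Markers of other cells were set beside Acacb. The 8 fibroblast genes summed to 2103 to 4033 CPM in DOX_neg and 798 to 1787 CPM in DOX_pos, all 8 were lower and the sums did not overlap. Within DOX_neg, the fibroblast sum was lowest in DOX_neg 4, where Acacb was highest, and highest in DOX_neg 3, where Acacb was lowest. The 10 adipocyte genes summed to 109 to 151 CPM in DOX_neg and 81.1 to 116 CPM in DOX_pos, and of the 5 that were tested 2 were higher and 3 lower. The adipocyte sum was highest in DOX_neg 4. The sums were carried by the lipase genes Pnpla2 (63.1 ± 18.4 and 51.8 ± 10.99 CPM) and Lpl (41.7 ± 6.54 and 22.0 ± 6.85 CPM) and, below them, Lipe. Plin4, Plin1, Cidec and Cfd went the other way at low levels: Plin4 measured 0.638 CPM in DOX_neg and 1.64 in DOX_pos, and Plin1, Cidec and Cfd, each too low to be tested, were higher in 4 of 5 DOX_pos tumours than in every DOX_neg tumour. Lipe and these 4 were named after their values were seen. Adipoq, which defines mature fat cells, was at 0 in every DOX_neg tumour and at most 0.546 CPM in DOX_pos, and 3 of the 10 were under 1 CPM in every tumour. The 13 milk and alveolar genes, 8 of 9 tested lower, summed to 1542 to 2207 and 1710 to 2658 CPM, most of it from Csn3. The 1 higher gene, Mfge8, also named after its values were seen, measured 312 ± 78.5 and 538 ± 41.2 CPM, without overlap. Its log2 fold change was 0.79 (edgeR adjusted p = 0.196, DESeq2 adjusted p = 0.0015, voom adjusted p = 0.0341). The part of these cells in the Acacb difference was not tested, and in bulk tissue fewer cells of a type and less RNA per cell cannot be told apart.

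Acaca, the cytosolic carboxylase that feeds palmitate synthesis, had a narrow spread. Its levels were 163, 143, 152, 156 and 177 CPM in DOX_neg 1 to 5 and 170.3, 156, 152, 158 and 148 CPM in DOX_pos 1 to 5. The groups overlapped fully, at 158 ± 12.8 and 157 ± 8.35 CPM, and the 95% interval of the log2 fold change was −0.15 to 0.13. Of the 75-base stretches of its transcripts 26.8% also occur elsewhere in the transcriptome, mainly in the pseudogene Gm5182, which collected 117 reads over the 10 tumours. Per kilobase of exon, the Acaca to Acacb ratio was 4.46 ± 1.56 in DOX_neg (2.26 to 5.75) and 9.88 ± 2.52 in DOX_pos (7.30 to 12.6), without overlap. With Acaca this steady, the ratio mostly restates the Acacb difference and is not a separate result. The size of the ratio depends on the lengths used, the merged exons of all annotated transcripts (17074 bases for Acaca, 9632 for Acacb).

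Fasn, the fatty acid synthase that makes palmitate, measured 680.0, 562, 502, 695 and 749 CPM in DOX_neg 1 to 5 and 583, 625, 524, 529 and 567 CPM in DOX_pos 1 to 5. DOX_neg 1, 4 and 5 were above every DOX_pos tumour, and DOX_neg 3 below them all. The group levels were 637 ± 102 and 566 ± 41.4 CPM and the log2 fold change was −0.17 (95% interval −0.41 to 0.06, edgeR adjusted p = 0.432).

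Among the elongases, Elovl6, which extends palmitate to stearate (chr3:129532355-129638495, GRCm38, plus strand), measured 111, 91.7, 76.5, 99.8 and 119 CPM in DOX_neg 1 to 5 and 89.0, 90.6, 78.7, 82.3 and 79.5 CPM in DOX_pos 1 to 5. DOX_neg 3 was the lowest of the 10 tumours, and the other 4 DOX_neg tumours were above every DOX_pos tumour. The log2 fold change was −0.24 (SE 0.11, edgeR adjusted p = 0.300), and voom placed it just under the threshold (adjusted p = 0.04995, range over all alternatives 0.04995 to 0.639). Elovl1, which acts on very long saturated chains, was the steadiest member, at 43.3 ± 2.89 and 42.7 ± 3.28 CPM, with a highest-to-lowest ratio of 1.19 over the tumours. Elovl5, which extends polyunsaturated chains, measured 40.5 ± 3.68 and 43.1 ± 6.29 CPM.

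No desaturase passed any of the tests. Scd1, a stearoyl-CoA desaturase that makes oleate, measured 188, 274, 186, 128 and 146 CPM in DOX_neg 1 to 5 and 206, 221, 189, 124 and 286 CPM in DOX_pos 1 to 5. The groups overlapped, and the highest and the lowest tumour were both DOX_pos. The interval of the log2 fold change was −0.36 to 0.67. Its paralogue Scd2 measured 691 ± 54.5 and 739.7 ± 142 CPM. Fads1 and Fads2, the desaturases of polyunsaturated fatty acids, measured 104 ± 22.2 and 91.5 ± 18.0 CPM, and 73.7 ± 7.67 and 65.8 ± 23.6 CPM. DOX_pos 4 was the low point of Fads2 at 29.9 CPM, with the other 9 tumours between 61.6 and 89.6 CPM.

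Acsl3, an acyl-CoA synthetase of the endoplasmic reticulum and lipid droplets, had the highest fold change of the 37. It measured 44.4, 32.1, 33.2, 29.7 and 45.4 CPM in DOX_neg 1 to 5 and 55.4, 37.4, 42.8, 40.3 and 60.3 CPM in DOX_pos 1 to 5. DOX_pos 1 and DOX_pos 5 were above every DOX_neg tumour, and the other 3 lay within the DOX_neg range. The log2 fold change was 0.35 (SE 0.16, unadjusted p = 0.0552, edgeR adjusted p = 0.321). Exons of Utp14b, a gene on the same strand, overlap 5.60% of the Acsl3 exon length. Thrsp, a lipogenic regulator abundant in lactating mammary gland, measured 54.5 ± 26.5 and 38.2 ± 20.4 CPM, a log2 fold change of −0.51 (SE 0.37) that was −0.21 without DOX_neg 4 and −0.90 without DOX_pos 2. DOX_neg 4 (96.2 CPM) and DOX_pos 2 (74.2 CPM) were its highest tumours, and the groups overlapped.

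**Figure D2:**
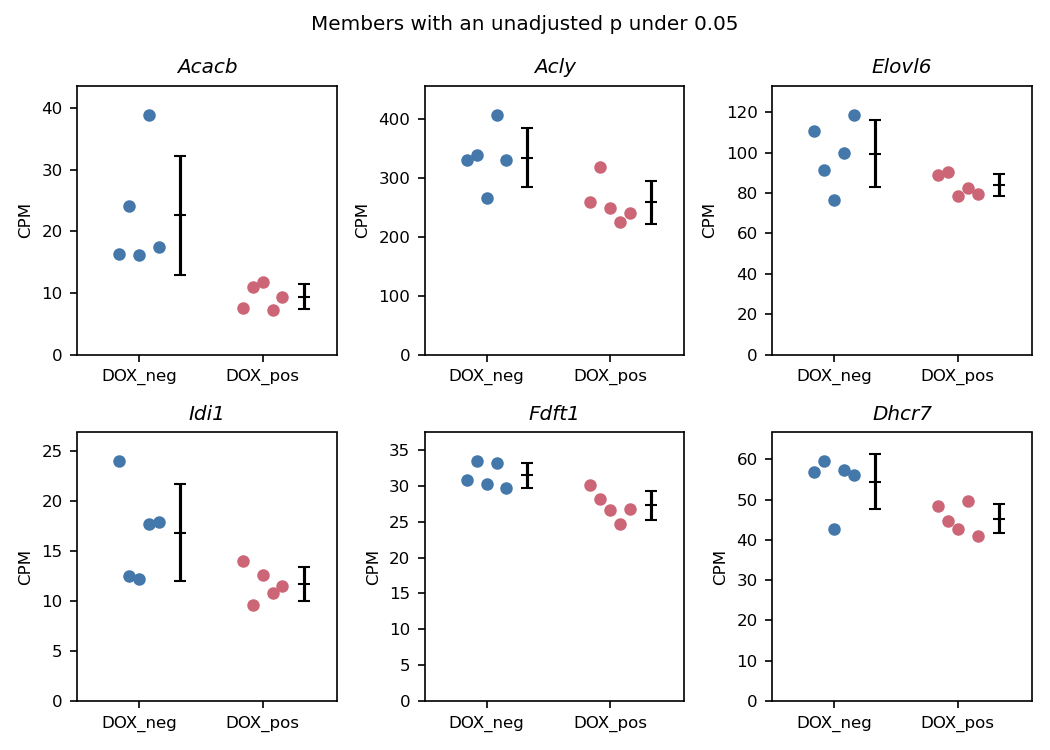
Level in each tumour (CPM, y axis from 0) of the 6 genes with an unadjusted edgeR p under 0.05, by group, with the group mean ± SD. Acacb alone has no overlap, and the other 5 have at least 1 DOX_pos tumour within the DOX_neg range.

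In the mevalonate part of the sterol branch, Hmgcs1 makes the HMG-CoA from which mevalonate is formed. It measured 65.0, 35.1, 43.8, 42.3 and 69.5 CPM in DOX_neg 1 to 5 and 82.2, 37.8, 58.1, 51.9 and 62.6 CPM in DOX_pos 1 to 5. DOX_neg 1, DOX_neg 5 and DOX_pos 1 were its 3 highest tumours, so the high values were divided between the groups. The group levels were 51.1 ± 15.2 and 58.5 ± 16.2 CPM, and the log2 fold change was 0.19 (SE 0.23, edgeR adjusted p = 0.692, 95% interval −0.31 to 0.70). It was 0.040 without DOX_pos 1 and 0.33 without DOX_neg 5.

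Idi1, the isomerase of isopentenyl diphosphate (chr13:8885501-8892451, GRCm38, plus strand), measured 24.0, 12.5, 12.2, 17.7 and 17.9 CPM in DOX_neg 1 to 5 and 14.0, 9.65, 12.6, 10.8 and 11.5 CPM in DOX_pos 1 to 5. DOX_neg 1, 4 and 5 were above every DOX_pos tumour, and DOX_neg 2 and 3 lay among them. The log2 fold change was −0.52 (SE 0.19, edgeR adjusted p = 0.247, range over all alternatives 0.0726 to 0.588). The pseudogene Gm13502, which shares sequence with Idi1, collected 10 reads in all.

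The other mevalonate enzymes were low and similar in both groups. The kinases Mvk and Pmvk measured 8.74 ± 1.504 and 9.62 ± 1.61 CPM, and 13.8 ± 2.58 and 11.9 ± 1.79 CPM. Mvd, the decarboxylase, measured 8.87 ± 1.81 and 8.74 ± 1.71 CPM, and Fdps, which makes farnesyl diphosphate, 8.04 ± 2.33 and 7.74 ± 2.06 CPM. Each of these 4 had a log2 fold change between −0.21 and 0.14, and none passed a test. Of the 75-base stretches of Fdps 23.5% also occur elsewhere, so its level is less certain.

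At the entry to sterols, Fdft1, squalene synthase (chr14:63145150-63179578, GRCm38, minus strand), measured 30.8, 33.4, 30.2, 33.1 and 29.6 CPM in DOX_neg 1 to 5 and 30.1, 28.2, 26.6, 24.7 and 26.8 CPM in DOX_pos 1 to 5. Of the DOX_pos tumours 4 were below every DOX_neg tumour, within a small difference of 31.4 ± 1.72 against 27.3 ± 2.02 CPM. The log2 fold change was −0.21 (SE 0.07, edgeR adjusted p = 0.241, range over all alternatives 0.0626 to 0.585). Exons of Ctsb, a gene on the opposite strand, overlap 18.3% of its exon length.

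Sqle, the squalene epoxidase, is regarded as a slow step of the later pathway. It measured 71.5, 51.4, 53.3, 56.1 and 77.6 CPM in DOX_neg 1 to 5 and 82.3, 59.8, 57.1, 64.2 and 63.2 CPM in DOX_pos 1 to 5. The groups overlapped, and the same 3 tumours as for Hmgcs1 were highest. The log2 fold change was 0.08 (SE 0.14, edgeR adjusted p = 0.806, 95% interval −0.23 to 0.38).

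Dhcr7, the reductase that completes cholesterol from its dehydro precursor (chr7:143823145-143848410, GRCm38, plus strand), was the sterol gene called by voom. It measured 57.0, 59.5, 42.6, 57.3 and 56.1 CPM in DOX_neg 1 to 5 and 48.3, 44.8, 42.6, 49.6 and 41.0 CPM in DOX_pos 1 to 5. Apart from DOX_neg 3, every DOX_neg tumour was above every DOX_pos tumour. The log2 fold change was −0.27 (SE 0.09, edgeR adjusted p = 0.244, voom adjusted p = 0.0422, range over all alternatives 0.0422 to 0.595).

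The remaining enzymes between squalene and cholesterol showed no difference that passed a test, with log2 fold changes from −0.14 (Lss) to 0.19 (Sc5d). Lss, which closes the rings to lanosterol, measured 41.3 ± 8.58 and 37.4 ± 5.39 CPM. Cyp51, the lanosterol demethylase, measured 25.3 ± 8.82 and 27.9 ± 7.55 CPM. Msmo1, which oxidises the ring methyl groups, varied most within the branch, from 5.81 CPM in DOX_neg 2 to 17.2 CPM in DOX_pos 1. Its partners in demethylation, Nsdhl and Hsd17b7, measured 15.2 ± 2.30 and 15.5 ± 2.34 CPM, and 17.6 ± 1.85 and 18.0 ± 3.09 CPM. The sterol isomerase Ebp measured 22.5 ± 3.44 and 22.2 ± 1.08 CPM, the desaturase Sc5d 24.7 ± 3.56 and 28.2 ± 5.98 CPM, and the reductase Tm7sf2 4.44 ± 0.532 and 4.72 ± 0.787 CPM.

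The regulators did not pass a test in either direction. Srebf1 measured 490.1, 775, 521, 637 and 525 CPM in DOX_neg 1 to 5 and 502, 779, 638, 495 and 507 CPM in DOX_pos 1 to 5. One tumour of each group, both numbered 2, stood highest, and the rest overlapped closely, with a 95% interval of the log2 fold change of −0.37 to 0.34. Srebf2 measured 145, 124, 131, 117 and 153 CPM in DOX_neg 1 to 5 and 168, 119, 134, 161 and 129 CPM in DOX_pos 1 to 5 (95% interval −0.15 to 0.33). DOX_pos 1 and 4 were above every DOX_neg tumour and the other 3 DOX_pos tumours lay within the DOX_neg range.

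Insig1, which retains the SREBPs and is itself one of their targets, measured 32.8, 22.5, 19.4, 23.1 and 34.8 CPM in DOX_neg 1 to 5 and 29.8, 20.7, 22.3, 25.8 and 24.3 CPM in DOX_pos 1 to 5. DOX_neg 1, DOX_neg 5 and DOX_pos 1 were again highest, and the interval of the log2 fold change was −0.48 to 0.26. Scap measured 150.1 ± 16.7 and 135 ± 12.7 CPM, and Stard4, a cytosolic carrier of sterol, 36.8 ± 5.84 and 31.8 ± 6.40 CPM.

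Many of the sterol genes varied together from tumour to tumour in a way that did not follow the groups. DOX_neg 1, DOX_neg 5 and DOX_pos 1 each had 19 of the 21 sterol genes above the gene's own mean. DOX_neg 3 had 3, DOX_pos 2 had 4 and DOX_neg 2 had 5. In 8 sterol genes (Hmgcs1, Pmvk, Mvd, Fdps, Sqle, Cyp51, Nsdhl and Insig1) the same 3 tumours were the highest of the 10, as they were in 1 of the 16 fatty acid genes, Acaca. Other sterol genes had another order: Fdft1, Dhcr7 and Scap were highest in DOX_neg 2, and Tm7sf2 and Sc5d in DOX_pos 5. Averaged over the 21 genes as centred log2 values, the high tumours stood at 0.25 (DOX_neg 1), 0.24 (DOX_neg 5) and 0.25 (DOX_pos 1), and the lowest at −0.23 (DOX_pos 2) and −0.20 (DOX_neg 2). High and low tumours thus occurred in both groups. The 3 high tumours were picked after the values were seen, and the same count over all genes was not made. Their likeness was not limited to sterol genes. DOX_neg 1 and DOX_neg 5 had the lowest chi-square of all pairs within a group (6.76). By correlation over all tested genes, DOX_pos 1 was the best DOX_pos match of both. Of the 16 fatty acid genes, DOX_neg 1 and DOX_neg 5 each had 12 above the gene's own mean, and DOX_pos 1 had 7.

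The fatty acid genes had another order of tumours. DOX_pos 4, the tumour with the lowest total count, was the lowest of the 10 in 9 of 16 fatty acid genes and below the gene's mean in 14, with an average of −0.40. The other 9 tumours averaged between −0.12 and 0.15. The genes with the widest range over the tumours were Acacb, with a highest-to-lowest ratio of 5.44, Thrsp (3.85) and Fads2 (3.00), all of the fatty acid branch.

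**Figure D3:**
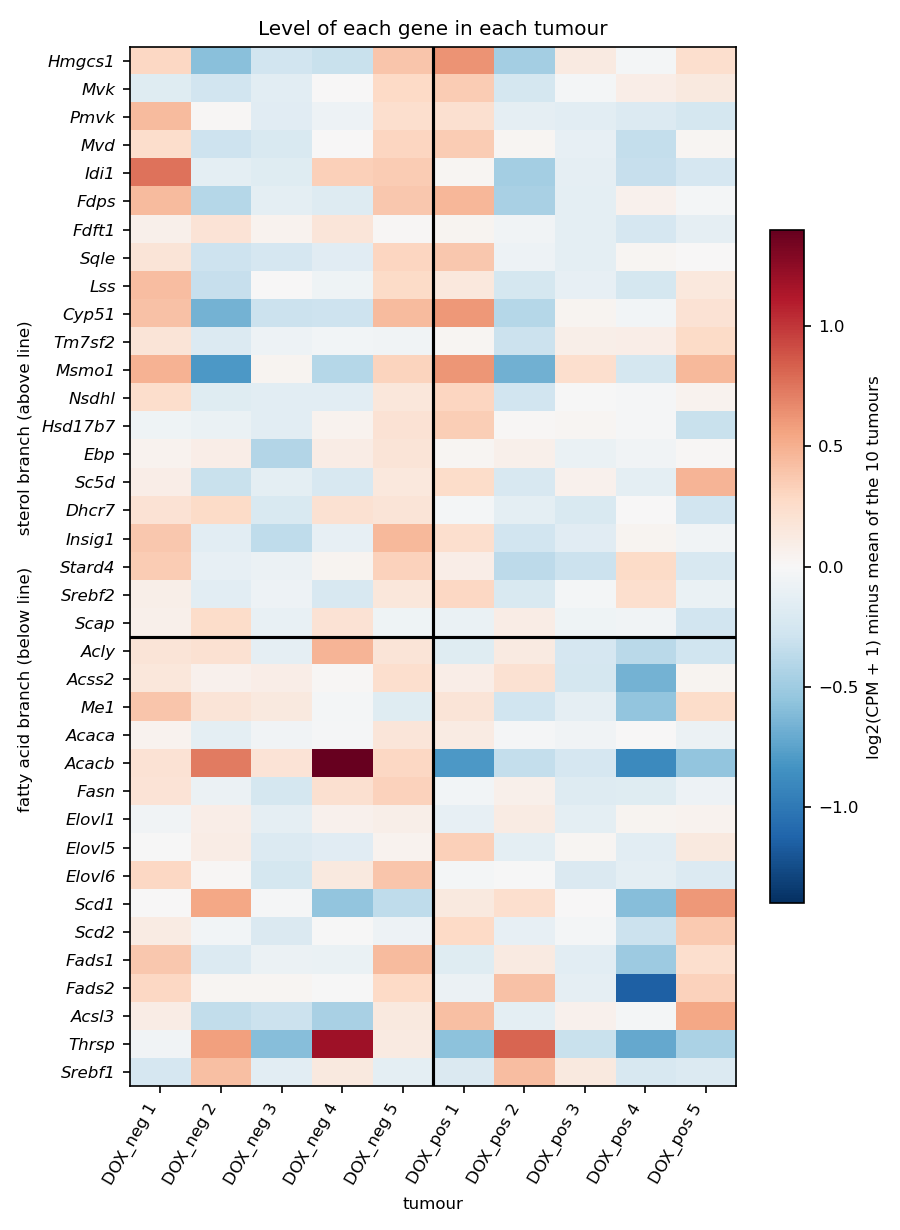
Log2 level of each of the 37 genes in each of the 10 tumours, centred on the gene's mean over the tumours, with genes in rows by branch and role and tumours in columns by group. The sterol rows are mostly high in DOX_neg 1, DOX_neg 5 and DOX_pos 1, and the fatty acid rows mostly low in DOX_pos 4.

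Levels of different genes were compared as CPM per kilobase of exon, averaged over the 10 tumours. The length was that of the merged exons of all annotated transcripts, such as 10163 bases for Acss2 and 4208 for Fdps. The order of genes therefore also depends on the annotation. The 5 highest values were all of the fatty acid branch, in both groups: Scd2 (131), Srebf1 (104), Acly (56.1), Fasn (55.0) and Scd1 (39.8). The next 3 by the mean over both groups, Fads2, Thrsp and Fads1, were also of that branch, but in DOX_pos Srebf2 (19.8) lay above Fads1 (19.0) and Thrsp (17.4). Acly was above Fasn in DOX_neg (63.3 against 58.2) and below it in DOX_pos (48.9 against 51.7). Srebf2 (19.2) and Scap (19.1) were the highest of the sterol branch, and its highest enzyme was Hmgcs1 (11.9). The lowest were Acss2 (1.03), Tm7sf2 (1.04) and Acacb (1.66). Acacb was at 2.34 in DOX_neg, above Fdps (1.91) and Msmo1 (1.77), and at 0.973 in DOX_pos. On this scale Scd2 exceeded Scd1 3.60 ± 1.04-fold in DOX_neg and 3.34 ± 0.614-fold in DOX_pos, and Srebf1 exceeded Srebf2 5.73 ± 1.64-fold and 5.43 ± 1.89-fold. The 37 genes together took 3903 ± 295 CPM in DOX_neg and 3737 ± 319 CPM in DOX_pos, with overlapping ranges of 3377 to 4063 and 3230 to 3972.

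**Figure D4:**
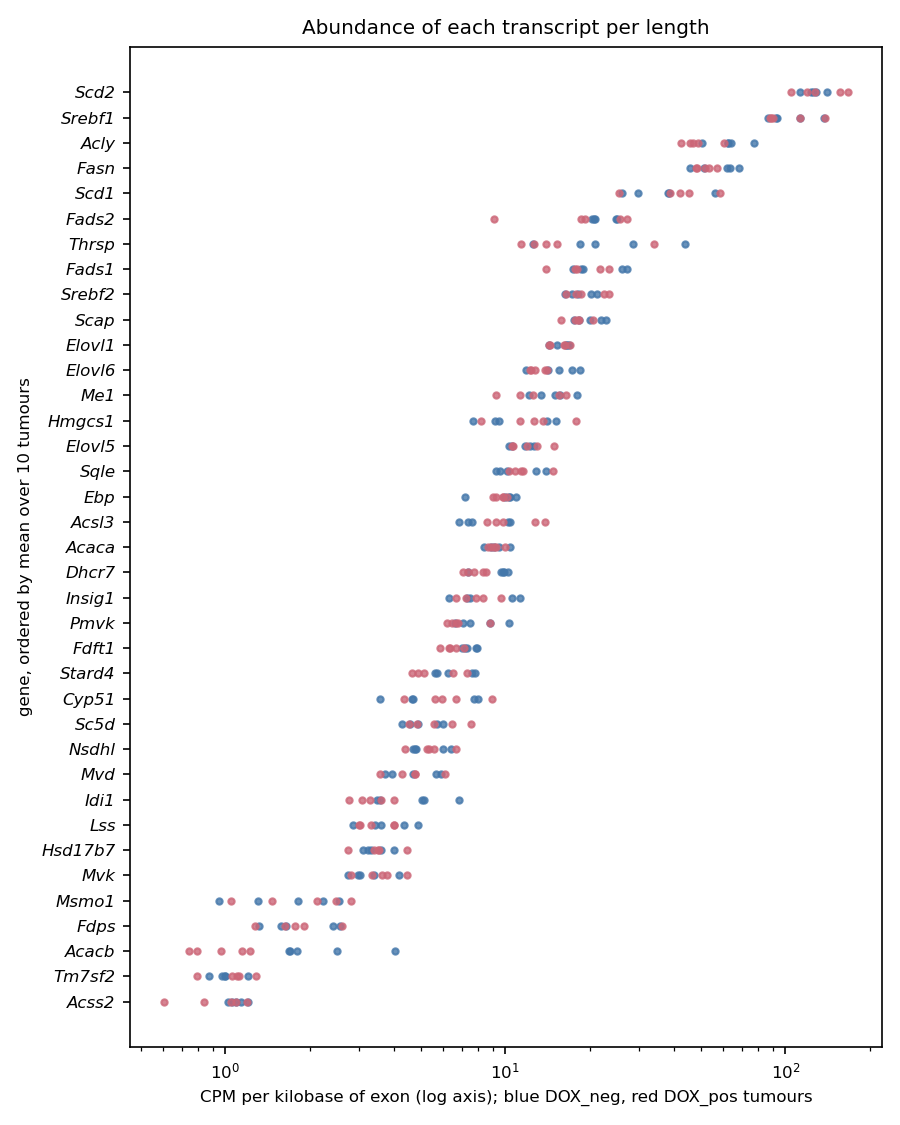
Level of each of the 37 genes as CPM per kilobase of exon on a log axis, with 1 point per tumour coloured by group. Genes of the fatty acid branch take the 5 highest places, from Scd2 at 131 down to Scd1 at 39.8, and the groups overlap in every gene but Acacb.

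Other genes of the same metabolism, taken from fixed lists, were set beside the members by counts. Of 12 further isoprenoid and sterol genes 10 were lower and 4 of those had an unadjusted p under 0.05, with 1 higher at that p and a median log2 fold change of −0.14. Tmem97, a sterol-responsive membrane protein, measured 44.9 ± 8.81 and 34.0 ± 4.42 CPM (log2 fold change −0.40, edgeR adjusted p = 0.243). Of 8 genes of SREBP processing 5 were higher and 3 lower. Mbtps2, the protease that frees the SREBPs, was lower at 69.1 ± 3.57 and 61.6 ± 3.44 CPM (log2 fold change −0.17, edgeR adjusted p = 0.243). The 8 genes of a list of LXR receptors, LXR targets and sterol handling had none at an unadjusted p under 0.05 (6 higher, 2 lower).

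Of 16 further genes of fatty acid synthesis and handling 9 were higher and 7 lower, with 1 at an unadjusted p under 0.05 in each direction. Acot1, a cytosolic thioesterase, was the lower of these at 40.2 ± 7.34 and 27.9 ± 5.89 CPM, and Hacd3, a dehydratase of elongation, the higher at 54.9 ± 3.68 and 63.2 ± 6.11 CPM. Among 11 genes of triglyceride synthesis 2 were lower and 1 higher at that p, including Gpam, the first acyltransferase, at 75.3 ± 18.6 and 55.6 ± 12.1 CPM. Of 9 tested genes of fatty acid oxidation 7 were lower, 4 of them at that p, and 1 was higher. None of these genes passed the adjusted threshold in edgeR.

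Further marker lists gave the setting of these values, and their part in the members' values was not tested. The 14 cell cycle genes were all lower, 11 of them at an unadjusted p under 0.05, with sums of 2193 to 2951 CPM in DOX_neg and 1999 to 2470 CPM in DOX_pos. Of the 8 epithelial markers 7 were higher, 2 of them at that p, and of the 7 endothelial markers 6 were lower, 3 of them at that p, and 1 was higher at that p. The 8 epithelial markers summed to 1195 to 1753 and 1257 to 1948 CPM, the 8 macrophage markers to 477 to 637 and 465 to 669 CPM, the 7 endothelial markers to 91.4 to 120.2 and 76.9 to 125 CPM, and the 8 T and NK cell markers to 8.43 to 14.9 and 8.80 to 22.1 CPM.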

How the data were processed

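The deposited values were whole-number read counts per Ensembl gene, made by the authors and not normalised. Build GRCm38 and the tools STAR 2.6.0c, featureCounts, Trimmomatic, bcl2fastq and DESeq2 are listed in the submitters' processing notes, and the strand setting is not given in the sources used here. Per the labels' protocols, ribosomal RNA was depleted and directional libraries were read single-end to 75 bp. Xist held 418344 counts and Tsix, on the opposite strand, 55.

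Of the 55335 identifiers 55154 matched a symbol. Coordinates and exon lengths (merged exons of all annotated transcripts of a gene) came from GENCODE M21. Groups were taken from the titles. Pairs of tumours within a group gave a chi-square of 6.76 to 41.9 per degree of freedom, above counting noise, so no library was a second copy of another, and each was counted as 1 sample as labelled. Tests ran on all 16167 genes left by filterByExpr (minimum count 10, minimum total 15) with edgeR 4.0.16 (TMM, quasi-likelihood, Benjamini-Hochberg adjustment, threshold 0.05) in R 4.3.3, with DESeq2 1.42.0 and limma 3.58.1 voom with sample weights as alternatives. Errors are SD over 5 tumours unless given as SE. Members and gene lists were chosen with earlier results of these data known. Named genes were members with an unadjusted p under 0.05 and fixed key members (Hmgcs1, Sqle, Srebf1, Srebf2, Insig1, Acaca, Fasn and Scd1), with the rest given by role. Tumours sharing a replicate number were not treated as pairs. The edgeR test alone was also run on simulated counts, with each gene drawn independently. That run cannot show how the test behaves where many genes vary together between tumours, so nothing is drawn from it here. Some genes of the pathway are not reported here.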

Additional observations from a re-analysis of the deposited data

Results flagged for a closer look

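In 5 of the 74 sets of 5 values (37 genes in 2 groups), the highest or lowest tumour stood apart from the rest by Dixon's test, where chance gives about 1 in 20. Pmvk in DOX_pos 1 was 15.1 CPM, with the next tumour of its group at 11.6. Sqle in DOX_pos 1 was 82.3 CPM, with the next at 64.2. Ebp in DOX_neg 3 was 16.6 CPM, with the next at 23.1. Dhcr7 in DOX_neg 3 was 42.6 CPM, with the next at 56.1. Thrsp in DOX_pos 2 was 74.2 CPM, with the next at 33.5.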

How the results depend on the processing

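Against 0 genes called by edgeR, DESeq2 called 324, voom 775 and the fit with a replicate block 7, and leaving out each tumour in turn gave 0 to 37 (37 without DOX_neg 3, 2 without DOX_pos 2). Members called were 1 by DESeq2 and 4 by voom, and 0 whichever tumour was left out. Members at an unadjusted p under 0.05 numbered 6, and 12 with voom, 3 with library size scaling only, 9 with the replicate block (7 of them lower), 2 without both DOX_neg 4 and DOX_pos 5, and 5 to 9 with 1 tumour left out. The median log2 fold change over the sterol genes ran from −0.09 to 0.07 and over the fatty acid genes from −0.20 to −0.06 (without DOX_pos 4) with 1 tumour left out, and with voom it was −0.12 and −0.24. The sterol median with library size scaling was 0.01 and with the replicate block −0.01. With library size scaling the median of all genes was 0.03, and 67.8% of 2307 genes at an unadjusted p under 0.05 were higher, against 51.2% of 2592.

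Replicate numbers were not taken to pair the tumours: correlations of same-numbered tumours were 0.320, 0.288, 0.131, 0.120 and 0.057, and 2 of 5 matched their own number best. An adjusted p under 0.1 added no gene. Of 333 member values under other settings 14 changed sign, and of 370 with 1 tumour left out 29 did, all of members that were not called. With voom these were Sqle (−0.11), Cyp51 (−0.0069), Nsdhl (−0.040), Hsd17b7 (−0.0047) and Srebf1 (0.093). With library size scaling they were Mvd (0.0092), Ebp (0.0015), Acaca (0.019), Elovl1 (0.0053) and Srebf1 (0.012). Without both DOX_neg 4 and DOX_pos 5 they were Msmo1 (−0.023), Nsdhl (−0.022), Scd1 (−0.10) and Srebf1 (0.060). With 1 tumour left out, the values ran for Mvd from −0.13 to 0.067, Fdps −0.21 to 0.072, Sqle −0.022 to 0.17, Cyp51 −0.018 to 0.29, Nsdhl −0.056 to 0.10 and Hsd17b7 −0.062 to 0.11. They ran for Ebp from −0.12 to 0.022, Insig1 −0.21 to 0.0062, Acaca −0.045 to 0.033, Elovl1 −0.063 to 0.0089, Fads2 −0.30 to 0.018 and Srebf1 −0.14 to 0.10. Uncalled values that kept their sign but moved by over 1.5 times included Scd1 (0.0062 without DOX_pos 5, 0.34 without DOX_neg 2), Fasn (−0.11 without DOX_neg 5) and Srebf2 (0.018 without DOX_pos 1). The cause of these shifts was not tested.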
